A study of Mus musculus with 3 samples.

Results

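The genes described here are 10 of the glycolytic pathway, namely Slc2a1, Hk2, Gpi1, Pfkl, Aldoa, Tpi1, Pgk1, Eno1, Pkm and Ldha. They were chosen by symbol as genes of the pathway, with earlier results of these data known, and they took up 11 of the 25906 gene rows of the count files, because Aldoa had 2. They were measured by single-cell RNA sequencing of live NK1.1+NKp46+ cells sorted from lungs and blood of female wild-type mice aged 9 weeks. There were 3 libraries, 1 from naive mice, 1 from mice 6 h and 1 from mice 14 days after 100000 PyMT mammary tumor cells had been injected intravenously. The study used several mice per time point, and their cells were not told apart by mouse here, so each library was taken as 1 sample. Lung and blood cells of 1 time point were in the same library and were told apart by hashtag antibodies, so the data held 6 groups. The methods list lung before blood and B0304 before B0306, and the tags were assigned to tissues in that order, since no other source pairs them.

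Glycolysis splits glucose into pyruvate and yields ATP without oxygen. Natural killer (NK) cells are lymphocytes that kill tumor cells, and resting NK cells are known for a low rate of glycolysis that rises after activation. The transcription factors HIF-1α, which is stabilized when oxygen is low, and MYC, which drives cell growth, are known to activate many genes of the pathway.

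The groups held 3676 cells from naive lung, 4367 from naive blood, 4680 from 6 h lung, 2746 from 6 h blood, 3575 from 14-day lung and 2069 from 14-day blood. Summed counts of unique molecular identifiers (UMIs) ranged from 16936897 (14-day blood) to 35922737 (6 h lung), and median UMIs per cell between 5909.5 and 7524. The 8 NK marker genes were all detected and summed to 7146 to 10330 counts per 1000000 (CPM). The T cell list summed to at most 58.2 CPM, the B cell list to 56.3, the platelet list to 1.32, the endothelial list to 86.0, the ILC1 list to 70.3 and the epithelial or tumor list to 6.74. Myeloid markers summed to 94.5 CPM in 14-day blood and to at most 51.3 elsewhere, and red cell genes to 90.002 CPM in 14-day lung and to at most 2.57 elsewhere. Mitochondrial and ribosomal protein genes took 25.5% of UMIs in 14-day lung and 15.9% in naive lung. With 1 library per time point, differences between time points have no replicate check and no p-value. Lung and blood shared a library at each time, so lung against blood was also tested over the 3 libraries. Intervals are exact 95% intervals that cover counting error only, and differences between time points are differences between single libraries. Cells of a type becoming fewer and less RNA per cell cannot be told apart in summed counts.

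The promoters of 4 of the genes are shown as examples, and no link between their letters and the differences below was tested. Each is the first RefSeq window of the gene in GRCm38.p6, cut to the 250 bases before the start site and printed 5′ to 3′ on the strand of the gene. Capitals mark the letters ACGTG or GCGTG on either strand, the core of the element that HIF factors bind. The window of Slc2a1, the glucose transporter GLUT1, is chr4:119108495-119108744 on the plus strand. That of Hk2, hexokinase 2, is chr6:82774455-82774704 on the minus strand. That of Pgk1, phosphoglycerate kinase, is chrX:106186850-106187099 on the plus strand. That of Ldha, lactate dehydrogenase A, is chr7:46845554-46845803 on the plus strand.
Slc2a1: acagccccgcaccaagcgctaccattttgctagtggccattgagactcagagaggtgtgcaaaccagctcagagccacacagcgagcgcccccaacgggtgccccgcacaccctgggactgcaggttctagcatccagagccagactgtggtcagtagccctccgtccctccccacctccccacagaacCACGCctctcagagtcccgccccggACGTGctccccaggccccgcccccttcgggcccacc
Hk2: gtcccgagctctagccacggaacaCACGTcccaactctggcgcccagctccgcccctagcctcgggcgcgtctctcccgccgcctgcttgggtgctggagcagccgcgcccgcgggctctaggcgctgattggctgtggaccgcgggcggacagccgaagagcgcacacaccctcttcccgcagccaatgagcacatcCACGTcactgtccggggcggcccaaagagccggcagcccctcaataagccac
Pgk1: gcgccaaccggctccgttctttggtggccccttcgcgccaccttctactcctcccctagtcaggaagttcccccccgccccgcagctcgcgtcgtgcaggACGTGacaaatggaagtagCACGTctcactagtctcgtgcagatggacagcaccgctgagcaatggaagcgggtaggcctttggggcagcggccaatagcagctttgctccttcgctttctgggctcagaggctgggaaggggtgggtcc
Ldha: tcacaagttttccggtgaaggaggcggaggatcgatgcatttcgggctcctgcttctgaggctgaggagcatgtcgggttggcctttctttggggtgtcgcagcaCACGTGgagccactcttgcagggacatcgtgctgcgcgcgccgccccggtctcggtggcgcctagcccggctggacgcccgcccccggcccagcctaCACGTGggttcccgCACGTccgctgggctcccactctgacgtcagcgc
Slc2a1 held 1 ACGTG and 1 GCGTG, Hk2 and Pgk1 held 2 ACGTG each, and Ldha held 5 ACGTG. Both CACGTG hexamers of the Ldha window, letters of the E-box that MYC binds, count as an ACGTG on each strand. RefSeq gave 16 windows for the 10 genes, of which 2 pairs overlap. With those merged into longer windows, 10 of 14 held ACGTG or GCGTG. Unmerged, 12 of 16 did, against 38.6% of all 32851 windows of the same length, also unmerged. ACGTG alone stood in 16.6% of all windows, GCGTG in 28.2% and CACGTG in 6.02%. In their first windows, 6 of the 10 genes had a match, against 38.6% of all 27025 genes with a window. In any window 8 had one, all but Gpi1 and Tpi1, against 41.5% of all these genes. The 10 genes had more windows per gene, with 16, than the 27025 genes, with 32851. A match is a description of the sequence and not a bound site.

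Transcripts of the 10 genes together made up a small part of the RNA in every group, and the part was larger after tumor cell injection. Their summed level was 860 (95% CI 848 to 872) CPM in naive lung and 885 (95% CI 874 to 895) in naive blood. At 6 h it was 914 (95% CI 904 to 924) CPM in lung and 948 (95% CI 935 to 961) in blood. At 14 days it was 998 (95% CI 986 to 1009) CPM in lung and 1033 (95% CI 1018 to 1049) in blood. No 2 of these 6 intervals overlapped, and lung was the lower tissue in each library, where the median log2 ratio of all genes was also below 0, at -0.07 to -0.10. At 14 days that order rested on the scale, because with totals taken without mitochondrial and ribosomal protein genes the sum was 1339 in lung and 1317 in blood. The upper limit on the share of member counts that free RNA could supply was 9.00% for naive lung, 4.67% for 6 h lung and 3.46% for 14-day lung.

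**Figure D1:**
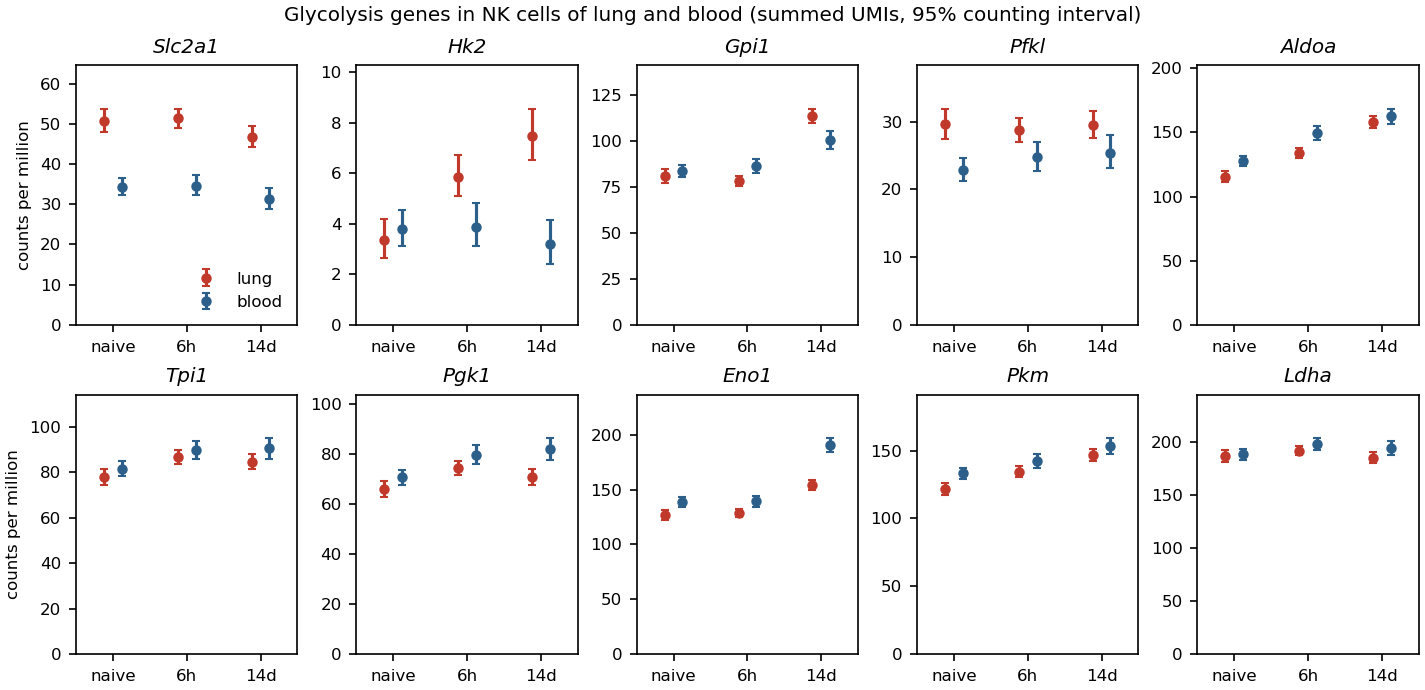
Level of each glycolysis gene in CPM (vertical axes, each from 0) in the naive, 6h and 14d libraries, with lung in red and blood in blue. Points are summed UMIs of 1 group and bars are 95% counting intervals. Slc2a1 was higher in lung than in blood in all 3 libraries, while Aldoa, Eno1 and Pkm were highest at 14 days in both tissues.

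RNA of the transporter Slc2a1 was higher in lung than in blood in every library, and that of Slc2a3, a transporter with more counts, was lower. Slc2a1 stood at 50.7 CPM in naive lung, 51.4 in 6 h lung and 46.8 in 14-day lung, and at 34.4, 34.7 and 31.4 in blood of the same libraries. Every lung value lay above every blood value, and the intervals of the tissues did not overlap. The log2 ratio of lung over blood was 0.56 (95% CI 0.44 to 0.68) in naive mice, 0.57 (95% CI 0.45 to 0.69) at 6 h and 0.58 (95% CI 0.43 to 0.73) at 14 days, each just under the 1.5-fold taken here as a call. At 6 h 29.4% of lung cells and 22.6% of blood cells held a UMI of Slc2a1. At an equal depth of 3000 UMIs per cell these shares were 13.9% and 10.0%. Pfkl, the liver-type subunit of phosphofructokinase, was the other gene on the lung side in all 3 libraries, at 29.7 against 22.9 CPM in naive mice, 28.8 against 24.8 at 6 h and 29.6 against 25.4 at 14 days. Its log2 ratio was 0.37 (95% CI 0.22 to 0.53) in naive mice and 0.22 at both later times.

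Hk2, which traps glucose in the cell by phosphorylation and is an inducible hexokinase, was rare. It was counted with 79 UMIs in naive lung, 114 in naive blood, 211 in 6 h lung, 86 in 6 h blood, 211 in 14-day lung and 54 in 14-day blood. In CPM this was 3.37, 3.80, 5.87, 3.90, 7.49 and 3.19 in the same order, so the 2 lung groups after injection were above the other 4. In lung, 14 days over naive gave a log2 ratio of 1.15 (95% CI 0.77 to 1.55) and 6 h over naive 0.80 (95% CI 0.42 to 1.19). In blood these were -0.25 (95% CI -0.75 to 0.23) and 0.03 (95% CI -0.39 to 0.45). Lung over blood was -0.18 (95% CI -0.61 to 0.25) in naive mice, 0.59 (95% CI 0.22 to 0.97) at 6 h and 1.23 (95% CI 0.79 to 1.69) at 14 days. The value at 6 h turned to -0.039 in cells with at most 3% mitochondrial counts. Only 4.08% of 14-day lung cells held a UMI of Hk2 and 15 of them held 3 or more, so few cells carry these values. At 3000 UMIs per cell the share was 1.47% in 14-day lung, 1.35% in 6 h lung and 0.68% to 0.92% in the other groups.

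Gpi1, Aldoa, Tpi1, Pgk1, Eno1, Pkm and Ldha differed little between the tissues, with log2 ratios from -0.30 to 0.18. In naive mice the ratio was below 0 for 8 of the 10 genes, and the interval lay below 0 for Aldoa, Pgk1, Eno1 and Pkm. At 6 h it lay below 0 for Gpi1 and for the same 4 genes, and at 14 days for Tpi1, Pgk1, Eno1 and Ldha. The median log2 ratio of all genes that reached 50 CPM was below 0 too, at -0.07, -0.07 and -0.10. In naive mice the ratios of Aldoa, Pgk1, Eno1 and Pkm lay above those of 33.3% to 42.6% of all such genes. A ratio below 0 was thus not particular to the 10 genes. The lowest ratio was that of Eno1, enolase 1, at 14 days, where lung had 154 and blood 191 CPM (log2 ratio -0.30, 95% CI -0.37 to -0.24). Gpi1, glucose-6-phosphate isomerase, passed from 80.7 against 83.5 CPM in naive mice to 114 against 100 CPM at 14 days, with log2 ratios of -0.05 (95% CI -0.14 to 0.04) and 0.18 (95% CI 0.09 to 0.27). The small ratios of Aldoa, Pkm and Ldha at 14 days changed sign when totals were taken without mitochondrial and ribosomal protein genes, to 0.04, 0.01 and 0.01.

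Of the 10 genes, 0 were called higher in lung in the naive library, beside 7.67% of all genes that reached 50 CPM in either tissue. Hk2 alone was called at 6 h (beside 7.19%) and at 14 days (beside 6.06%), although its own level was under 50 CPM. None was called lower, beside 2.21%, 1.8% and 3.4% of genes. The median log2 ratio of the 10 genes was -0.08, -0.07 and -0.05 in the naive, 6 h and 14-day libraries, and that of all such genes -0.07, -0.07 and -0.10. Of the 10 genes, 5, 5 and 7 lay above that median, and the ratio of Slc2a1 lay above those of 91.9%, 92.4% and 93.9% of all such genes.

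Over the 3 libraries, Slc2a1 and Pfkl were higher in lung than in blood, and none of the 10 genes passed the test as lower. The test was edgeR's quasi-likelihood test of the summed counts with the library as a block and TMM factors, which scale libraries to a trimmed mean over genes, and it was added after the values were seen. Slc2a1 had a log2 ratio of 0.67 (SE 0.05, edgeR adjusted p = 0.0016), and it passed in each alternative fit. Pfkl had 0.37 (SE 0.06, edgeR adjusted p = 0.013), and its edgeR adjusted p was 0.11 without the naive library and 0.12 without the 6 h library. Beside these 2 of 10 genes, 11.8% of the 12651 genes tested were higher, and beside 0 of 10, 7.12% were lower. At an unadjusted p under 0.05 the count of the 10 genes was still 2 higher and 0 lower, and DESeq2 gave 2 and 0 after adjustment. Hk2 had 0.65 (SE 0.28, edgeR adjusted p = 0.17). The other 7 genes had log2 ratios from -0.08 to 0.09, with edgeR adjusted p from 0.32 to 0.93. Without TMM factors the same 7 ran from -0.18 to -0.01, so the side of 0 on which they lay rested on the scale. Time points served as replicates in this fit, so it bears on what the tissues differed by at all 3 times.

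**Figure D2:**
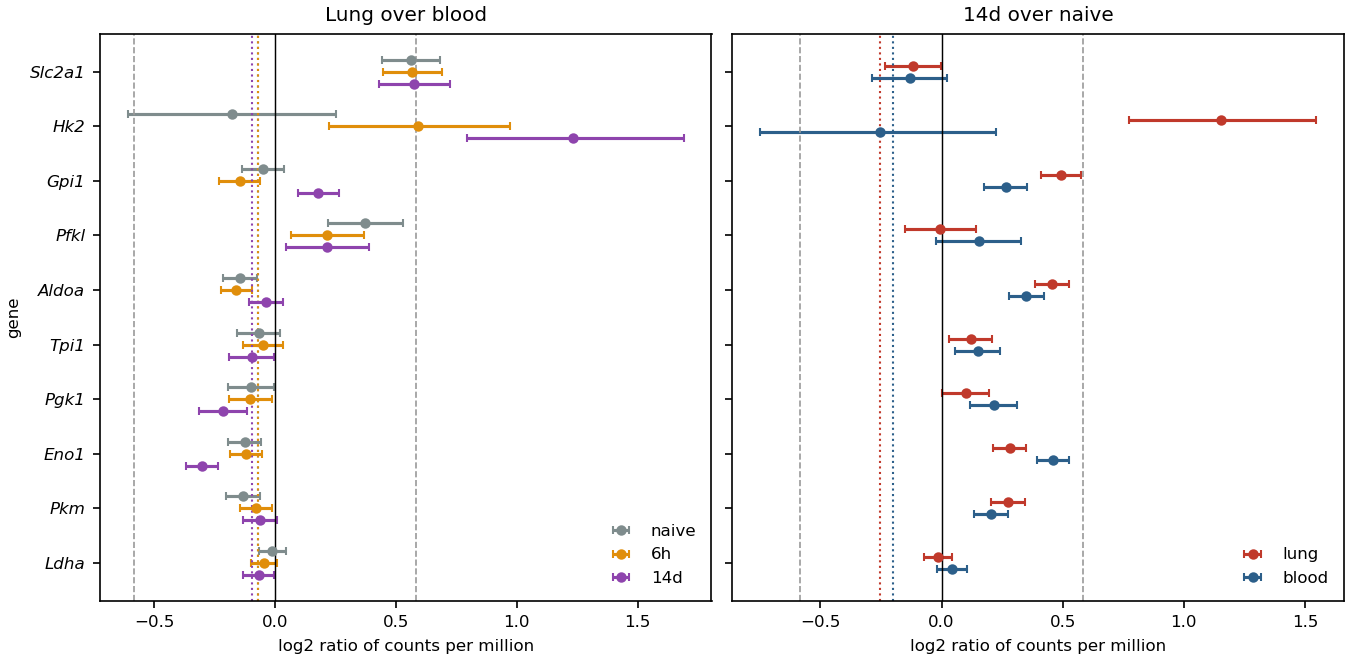
Log2 ratio of CPM (horizontal axis) of each glycolysis gene, lung over blood in the 3 libraries on the left and 14 days over naive in lung and blood on the right. Points are ratios of summed UMIs with 95% counting intervals, dashed lines mark 1.5-fold and dotted lines the median over every gene that reached 50 CPM. Slc2a1 stayed at 0.56 to 0.58 between the tissues, and at 14 days Gpi1, Aldoa, Tpi1, Pgk1, Eno1 and Pkm were above naive in both tissues.

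At 14 days after tumor cell injection most of the enzymes were above naive levels, by differing amounts. Aldoa, fructose-bisphosphate aldolase A, went from 115 CPM in naive lung to 134 at 6 h and 158 at 14 days, and in blood from 127 to 149 and 162. For 14 days over naive its log2 ratio in lung was 0.46 (95% CI 0.39 to 0.53), and the blood value was 0.35 (95% CI 0.28 to 0.42). It was also the gene with the largest ratio of 6 h over naive in blood, at 0.23 (95% CI 0.16 to 0.30). Only 1 to 4 UMIs per group came from its second row, and they were added. In every pair of neighbouring times the later interval lay above the earlier one in both tissues.

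Eno1 behaved differently in time. It was level at 6 h, with 127 and 128 CPM in lung and 139 and 139 in blood, and higher at 14 days, with 154 in lung and 191 in blood. The log2 ratios of 14 days over naive were 0.28 (95% CI 0.21 to 0.35) and 0.46 (95% CI 0.39 to 0.53). Gpi1 had the same shape, with 78.1 CPM in 6 h lung and 86.4 in 6 h blood, and ratios at 14 days of 0.49 (lung, 95% CI 0.41 to 0.58) and 0.26 (blood, 95% CI 0.17 to 0.35). The difference between tissues thus ran in opposite directions for these 2 genes at 14 days, Eno1 being higher in blood and Gpi1 in lung.

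Pkm, pyruvate kinase, whose M1 and M2 forms these counts do not separate, went from 122 CPM in naive lung to 134 and 147, and from 133 in naive blood to 142 and 153. Ldha, which turns pyruvate into lactate, was the most level of the abundant enzymes. It had 187, 192 and 185 CPM in lung and 189, 198 and 194 in blood, with ratios of 14 days over naive of -0.01 (95% CI -0.07 to 0.04) and 0.04 (95% CI -0.02 to 0.10). Tpi1, triosephosphate isomerase, had 78.0, 86.6 and 84.7 CPM in lung and 81.7, 89.7 and 90.6 in blood. Pgk1 had 66.0, 74.2 and 70.7 in lung and 70.7, 79.6 and 82.0 in blood. For Tpi1 and Pgk1 the intervals at 6 h and 14 days overlapped in each tissue. For 14 days over naive Tpi1 had log2 ratios of 0.12 (lung, 95% CI 0.03 to 0.21) and 0.15 (blood, 95% CI 0.06 to 0.24). Those of Pgk1 were 0.10 (lung, 95% CI 0.003 to 0.20) and 0.21 (blood, 95% CI 0.12 to 0.31). Slc2a1 was if anything lower at 14 days, at -0.12 (lung, 95% CI -0.23 to -0.003) and -0.13 (blood, 95% CI -0.29 to 0.02).

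Hk2 in lung was the only one of the 10 genes called higher than naive, at 6 h (beside 0.231% of genes) and at 14 days (beside 4.47%). Its level was under 50 CPM, so Hk2 lay outside the genes of these shares. In blood 0 were called at 6 h (beside 0.128%) or at 14 days (beside 0.564%), and 0 were called lower in lung (beside 0% and 13.4%) or in blood (beside 0.0256% and 3.02%). The median ratio of the 10 genes at 14 days was 0.20 in lung and 0.18 in blood, where the medians of all genes were -0.25 and -0.20. All 10 genes in lung and 9 in blood, all but Hk2, lay above those medians. At 6 h the medians were 0.09 and 0.08 for the 10 genes and -0.09 and -0.07 for all genes, and all 10 lay above in both tissues. Totals without mitochondrial and ribosomal protein genes moved every ratio of 14 days over naive in lung by 0.17 and in blood by 0.09, which put the median of the 10 genes in lung at 0.37 and that of all genes at -0.08. On that scale Slc2a1 and Ldha, level or lower in 14-day lung on the main one, had 0.06 and 0.16.

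Other steps of the pathway did not follow 1 pattern. Of the 22 other enzymes and transporters listed, 5 reached 50 CPM in naive mice, and 0 of the 5 were called between the tissues there. Slc2a3, the glucose transporter GLUT3, ran against Slc2a1, with 67.7, 64.0 and 54.9 CPM in lung and 97.7, 89.7 and 89.9 in blood in the naive, 6 h and 14-day libraries. Its log2 ratio of lung over blood was -0.53 (95% CI -0.62 to -0.44), -0.49 (95% CI -0.58 to -0.40) and -0.71 (95% CI -0.81 to -0.61). The last was the only call among the 5 genes in any of the 7 comparisons. Hk1, the constitutive hexokinase, was lower in lung as well, at 54.8 against 70.0 CPM in naive mice and 48.5 against 60.6 at 14 days, so it was several times more abundant than Hk2 in these counts, which do not scale with transcript length. Pfkp, the platelet-type phosphofructokinase, had 193 CPM in naive lung and 129 in 14-day lung (log2 ratio -0.58, 95% CI -0.65 to -0.52), while Pfkl was level (0.00, 95% CI -0.15 to 0.14). In blood Pfkp had 176 and 157 CPM. Gapdh was higher at 14 days, at 309 against 250 CPM in lung and 320 against 272.5 in blood, and Pgam1 stayed between 68.3 and 75.3 CPM in all groups. Bpgm, which makes 2,3-bisphosphoglycerate, stayed at or under 19.6 CPM.

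The branches off the pathway moved little. Pfkfb3, which makes the activator of phosphofructokinase, was between 53.3 and 74.7 CPM and lower in lung in each library. Of the 18 genes of pyruvate fate, 5 reached 50 CPM in naive mice and 0 were called in any of the 7 comparisons. Of the 7 genes of the pentose phosphate branch, 3 did, and 1 was called higher in 14-day than naive lung, beside 4.47% of genes. It was Pgls, 6-phosphogluconolactonase, with 71.3 CPM in naive lung and 107 in 14-day lung. Near-identical copies took few counts, with Eno1b at no more than 3.4 CPM.

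Several regulators of glycolysis genes and some other targets of the low-oxygen response had more RNA in lung than in blood, while the target Pfkfb3 had less. Fewer were called at 14 days, when fewer of them reached 50 CPM. The 19 listed regulators of glycolysis genes reach beyond the low-oxygen response and include Myc. Of these 19, 9 reached 50 CPM in naive mice and 4 were called higher in lung, beside 7.67% of genes. The 4 were Bhlhe40, Mxi1, Hif1a and Rptor. At 6 h 3 of 7 were called, beside 7.19%, and at 14 days 2 of 7, beside 6.06%. None was called lower. The median log2 ratio of the list was 0.39, 0.18 and 0.13 at the 3 times. Hif1a, which encodes HIF-1α, had 72.5, 65.4 and 56.5 CPM in lung and 44.2, 42.1 and 36.6 in blood, with log2 ratios of 0.71, 0.63 and 0.63. Vegfa, a growth factor for vessels and a HIF target, had 72.0, 80.0 and 35.8 CPM in lung and 5.6, 5.8 and 5.1 in blood. P4ha1, a prolyl hydroxylase subunit of collagen synthesis, had 57.4 against 35.4 CPM in naive mice. Of 17 other hypoxia response genes, Vegfa and P4ha1 were the 2 called higher among the 7 that reached 50 CPM in naive mice (beside 7.67%), and Bnip3l and Kdm3a were not called. Pfkfb3, also on this list, had log2 ratios of lung over blood of -0.26, -0.30 and -0.14 at the 3 times. At 6 h 1 of 7 was called (beside 7.19%) and at 14 days 0 of 5 (beside 6.06%). The median of this list was 0.22, 0.20 and -0.10, the last being that of all genes. Genes under 50 CPM were left out of the counts and medians of both lists, which thus did not cover the same genes at each time. Those left out at 14 days included Vegfa and Mxi1, whose log2 ratios of lung over blood were 2.82 and 0.79. Between naive and 14-day lung Vegfa was lower by a log2 ratio of -1.01 (95% CI -1.12 to -0.89), while Slc2a1 changed by -0.12.

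**Figure D3:**
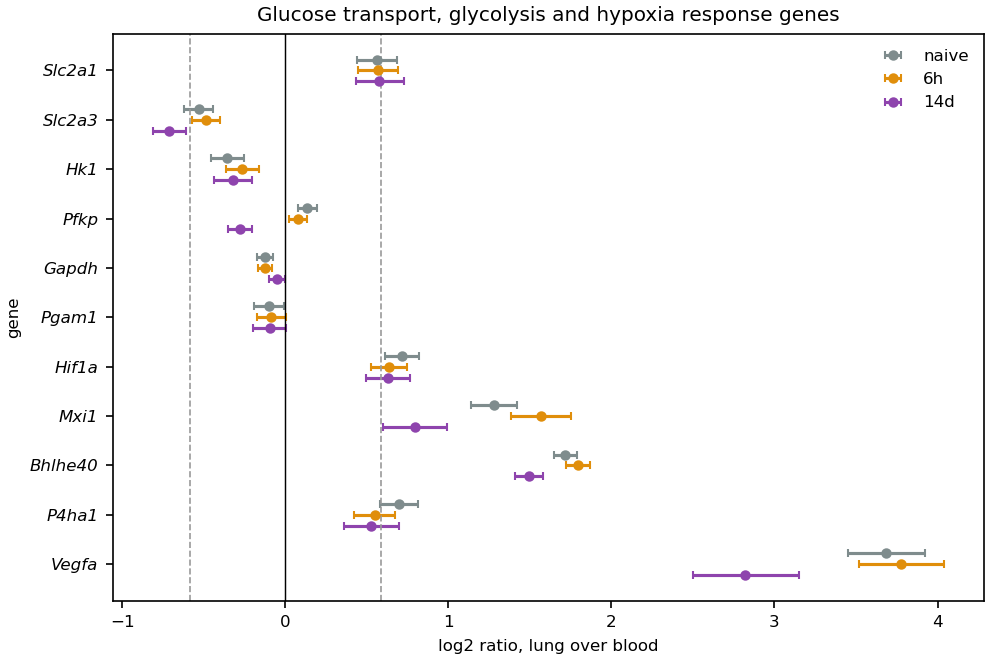
Log2 ratio of lung over blood (horizontal axis) for 2 glucose transporters, 4 glycolytic enzymes, 3 regulators and 2 hypoxia response genes in the naive, 6h and 14d libraries, with 95% counting intervals and dashed lines at 1.5-fold. The regulators and hypoxia response genes drawn are ones that were called higher in naive lung. Slc2a1 lay with Hif1a and P4ha1 to the right of 0, and Slc2a3 and Hk1 lay to the left in all 3 libraries.

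Myc had 16.9 CPM in naive lung, 22.9 at 6 h and 41.2 at 14 days, against 24.4, 27.0 and 24.6 in blood. It was thus highest in 14-day lung, the group in which Hk2 was highest too. At 6 h the 2 genes ran apart, with less Myc but more Hk2 in lung than in blood (5.87 against 3.90 CPM). A link between them was not tested. Mif, a cytokine gene of the hypoxia list, was at 109, 156 and 165 CPM in lung and 115, 169 and 139 in blood.

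Genes of the response to tissue dissociation also moved with lung. The 10 listed summed to 2083, 2178 and 1942 CPM in lung and 824, 864 and 741 in blood, with Fos at 80.3 CPM in naive lung and 12.8 in naive blood. When cells with a UMI of Fos, Egr1, Atf3, Hspa1a or Hspa1b were left out, Slc2a1 kept log2 ratios of 0.46 in naive mice, 0.57 at 6 h and 0.49 at 14 days, and Hk2 had 1.39 at 14 days and 0.49 at 6 h. In the same cells Hif1a had 0.65, 0.63 and 0.63, although Junb was still at 2.38 in naive mice. The part of dissociation in these differences was not tested beyond that. Leaving out cells with markers of red cells, myeloid cells, B cells, endothelium or epithelium changed no count of called genes, and Hk2 was still called in 6 h and 14-day lung.

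Within each group, cells richer in RNA of the ribosome-building machinery were richer in glycolysis RNA. Cells of a group were split into 3 classes of equal size by the share of UMIs from 11 genes of ribosome synthesis (Srm, Nop56, Nop58, Fbl, Ncl, Nolc1, Mybbp1a, Rrp9, Wdr43, Polr1b, Bop1), none of them a glycolysis gene. The 10 genes summed to 943 CPM in the highest and 804 in the lowest class of naive lung, 995 and 805 in naive blood, 1009 and 847 in 6 h lung and 1066 and 874 in 6 h blood. At 14 days the sums were 1125 and 893 in lung and 1173 and 936 in blood. The highest class was above the lowest in all 6 groups without overlap of intervals, with log2 ratios of 0.23 to 0.33, and the middle class lay between. Median UMIs per cell differed less, for example 7486 and 6505.5 in 14-day lung. Among cells with 8000 to 14000 UMIs the log2 ratios were 0.31, 0.39, 0.31, 0.35, 0.32 and 0.31 in the same order of groups. The classes are ranges of a score, and in 14-day lung 816 of 3575 cells lay within 10% of a limit between them.

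**Figure D4:**
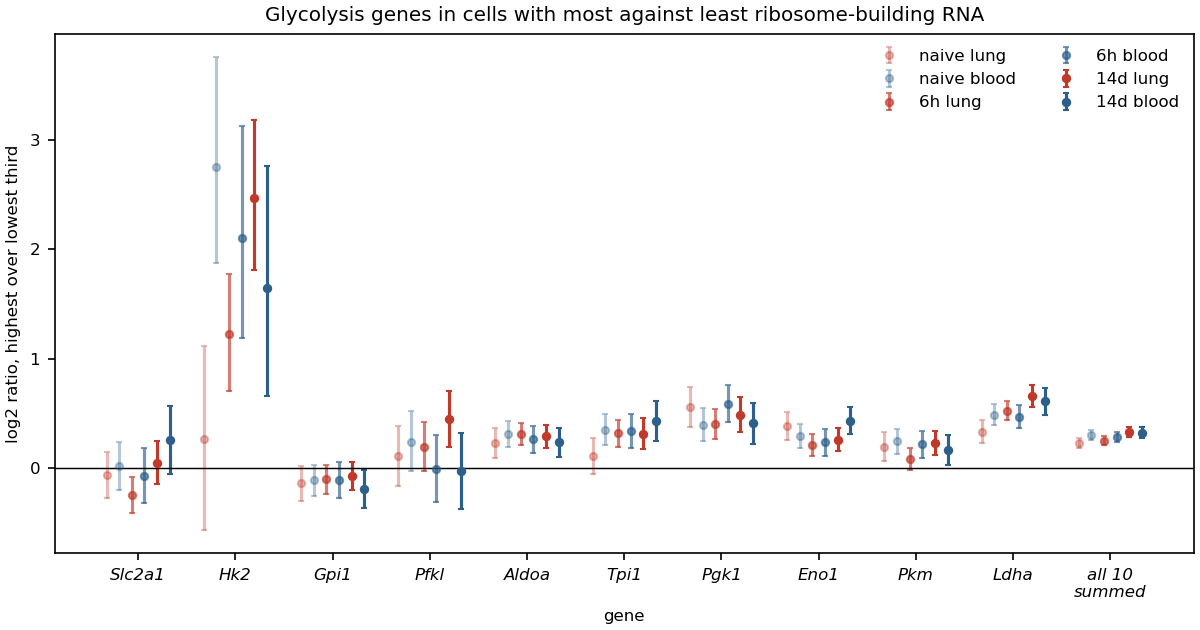
Log2 ratio (vertical axis) of each glycolysis gene and of their sum between the classes of cells with the most and the least RNA of 11 ribosome synthesis genes, for the 6 groups, with 95% counting intervals. Ldha, Pgk1, Aldoa and Eno1 were above 0 in all 6 groups, Hk2 was above 1 in 5 of them, and Slc2a1 and Gpi1 lay between -0.25 and 0.26.

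The genes did not share equally in this. Hk2 had the largest ratio in 5 of the 6 groups, the exception being naive lung, with 2.47 (95% CI 1.81 to 3.18) in 14-day lung, 2.75 (95% CI 1.87 to 3.75) in naive blood and 0.27 (95% CI -0.56 to 1.12) in naive lung. In 14-day lung 146 of its 211 UMIs came from the highest class, and in naive lung 30 of 79. In naive lung Pgk1 had the largest, at 0.56. Ldha ran from 0.33 (naive) to 0.66 (14 days) among lung groups, and Pgk1 between 0.40 and 0.59. Aldoa, Eno1 and Tpi1 were above 0 in all 6 groups. Gpi1 was below 0 in all 6, from -0.19 to -0.07, with an interval clear of 0 only in 14-day blood. Pfkl ran from -0.02 in 14-day blood to 0.45 in 14-day lung. Slc2a1 lay between -0.25 and 0.26, with an interval clear of 0 only in 6 h lung (-0.25, 95% CI -0.41 to -0.08). The transporter, like Gpi1, thus did not go with Ldha, Pgk1, Aldoa, Eno1 and Tpi1 inside a group.

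A small set of 14-day lung cells with Gzmc, a granzyme gene, carried more glycolysis RNA. Gzmc was detected in 210 of 3575 cells (5.87%) of 14-day lung and in 0.92% to 2.44% of cells elsewhere. The 10 genes summed to 1286 (95% CI 1242 to 1332) CPM in these cells and to 970 (95% CI 958 to 982) in the other cells of 14-day lung. By Gzmc count the sum was 1170 CPM in the 96 cells with 1 UMI, 1282 in the 75 cells with 2 to 9 and 1469 in the 39 cells with 10 or more. Of the 10 genes, 3 were called higher with Gzmc, beside 4.43% of genes, and 0 lower, beside 10.7%. They were Hk2 (log2 ratio 1.73, 95% CI 1.24 to 2.19), which was under 50 CPM and so outside these shares, and 2 abundant genes. The latter were Pgk1 (0.73, 95% CI 0.54 to 0.91) and Ldha (0.73, 95% CI 0.61 to 0.84). All 10 ratios were above 0. The lowest were those of Pfkl (0.04, 95% CI -0.32 to 0.38), Eno1 (0.07, 95% CI -0.09 to 0.21) and Slc2a1 (0.10, 95% CI -0.18 to 0.37).

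Cells with Gzmc were also deeper, with a median of 11107.5 UMIs against 6871. Among cells with 8000 to 14000 UMIs, 85 with and 964 without Gzmc, the ratio of the sum was 0.23 (95% CI 0.14 to 0.32) in place of 0.41 (95% CI 0.35 to 0.46). There Hk2 had 1.10 (95% CI 0.22 to 1.89), Pgk1 0.44 (95% CI 0.10 to 0.76) and Ldha 0.47 (95% CI 0.27 to 0.66), so Pgk1 and Ldha were no longer past 1.5-fold. In the other 5 groups the ratio of the sum with over without Gzmc was between 0.01 and 0.18, over 40 to 102 cells with Gzmc. It was 0.18 (95% CI 0.05 to 0.32) in 14-day blood and 0.17 (95% CI 0.004 to 0.34) in naive blood. The intervals held 0 in naive lung (0.12), in 6 h lung (0.07, 95% CI -0.02 to 0.16) and in 6 h blood (0.01).

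The share of single cells with very high glycolysis RNA was largest in 14-day lung. Among cells with at least 3000 UMIs, 26 of 3537 (0.74%, 95% CI 0.48 to 1.08) had 25 or more UMIs of the 10 genes per 10000, against 4 to 11 cells and 0.11% to 0.34% in the other groups. The limit of 25 was chosen from several after values were seen. The interval of 14-day blood (0.34%, 95% CI 0.14 to 0.70) overlapped that of 14-day lung. The highest cell had 57.7 per 10000 there and at most 36.7 elsewhere, while the medians of the groups ran only from 8.06 to 9.63. These cells were picked by the 10 genes themselves, so their levels are a description. Of the 26 cells, 7 held Gzmc, beside 210 of all 3537 cells, a count not matched for depth. In the other groups no cell past the limit held Gzmc, but 4 to 11 cells per group are too few to compare. Genes that the choice did not use were higher in them too, with Gapdh at 1059 against 302 CPM, Pgam1 at 199 against 69.3 and Mif at 930 against 157. For Slc2a3, Hk1 and Pfkp no difference could be told, at 69.7, 34.8 and 118 CPM against 54.7, 48.6 and 129. The intervals of their log2 ratios held 0, for Slc2a3 from -0.37 to 0.98 over 20 UMIs. The NK markers Ncr1, Klrb1c and Eomes were present in them at 488, 752 and 178 CPM, against 667, 1055 and 223 in the other cells. Ncr1 (log2 ratio -0.45, 95% CI -0.70 to -0.21) and Klrb1c (-0.49, 95% CI -0.69 to -0.29) were thus lower. These cells held 1 UMI of Hbb-bs and 0 of C1qa, and their median depth was 10582.5 against 7024 UMIs. Other markers of these cell types, and markers of tumor, B and endothelial cells, are not given for them. The epithelial or tumor list summed to 6.74 CPM in 14-day lung as a whole. No doublet caller was run, and whether the 26 cells include doublets was not tested.

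**Figure D5:**
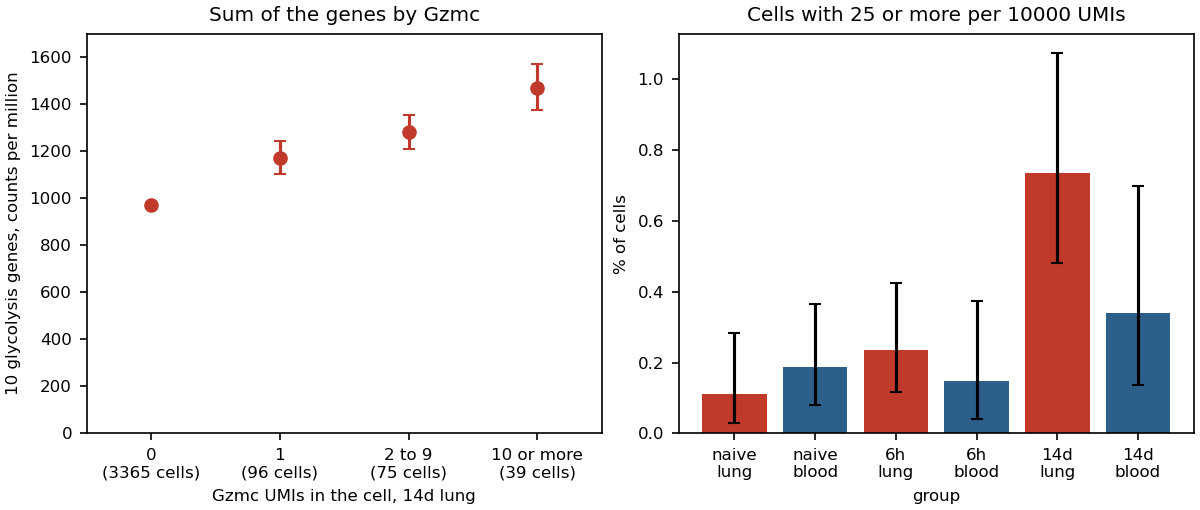
Left, summed level of the 10 glycolysis genes in CPM (vertical axis) in 14-day lung cells by their number of Gzmc UMIs. Right, percentage of cells (vertical axis) with 25 or more glycolysis UMIs per 10000 in the 6 groups, with lung in red and blood in blue, and bars on both sides are 95% counting intervals. The sum was 970 without Gzmc and 1469 with 10 or more Gzmc UMIs, and 14-day lung had 0.74% of cells past 25 per 10000.

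Joint variation of 2 genes across the cells of a group was measured as the covariance of their rates over the product of their means, which is 0 when they vary apart. For the 6 enzymes Aldoa, Tpi1, Pgk1, Eno1, Pkm and Ldha it was above 0 in all 15 pairs of every group. The median over the pairs was 0.30 in 14-day lung and 0.14 to 0.16 in the other groups, and without Gzmc cells it was 0.21 in 14-day lung. Slc2a1 had a median of 0.06 with these enzymes in 14-day lung and of -0.06 to -0.01 elsewhere. Cells of a group share a library and differ in depth. In cells with 5000 to 10000 UMIs the medians of the 6 enzymes were 0.09 in 14-day lung and 0.03 to 0.09 in the other groups. At like depth 14-day lung thus did not stand apart. Of the 15 pairs, 14 were above 0 there in naive lung, 6 h blood and 14-day blood.

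Cells were also compared by genes of maturation and residence. Cells with Cd27 but no Itgam UMI, genes of less and more mature NK cells, were compared with cells with Itgam only. In 14-day lung, over 483 and 1679 cells, the ratio of the sum was 0.19 (95% CI 0.15 to 0.24), with Hk2 at 1.88 (95% CI 1.35 to 2.43) and Aldoa at 0.42 (95% CI 0.31 to 0.54), and Eno1 at -0.19 (95% CI -0.32 to -0.07). In 14-day blood the ratio of the sum was -0.08 (95% CI -0.16 to 0.004). It was positive in naive lung (0.15, 95% CI 0.07 to 0.22) and naive blood (0.09, 95% CI 0.02 to 0.15). The same held for 6 h lung (0.16, 95% CI 0.11 to 0.21) and 6 h blood (0.14, 95% CI 0.08 to 0.21). At like depth, in the range used for Gzmc, naive lung kept 0.14 (95% CI 0.01 to 0.27). The value of 6 h lung was 0.14 (95% CI 0.06 to 0.21). Naive blood fell to 0.004 (95% CI -0.09 to 0.10) and 6 h blood to 0.08 (95% CI -0.003 to 0.17). The higher sum was thus not particular to 14-day lung. In naive and 6 h blood it could not be told at like depth. In 14-day lung, cells with neither gene had 1082 CPM, beside 1075 with Cd27 only. Median UMIs there were 9101 with Cd27 only and 6743 with Itgam only. Cells of 14-day lung with both Itga1 and Pmepa1, 605 against 1841 with neither, had a ratio of the sum of -0.07 (95% CI -0.12 to -0.03), which was also the median over all genes. Eno1 at -0.41 (95% CI -0.53 to -0.29), Pkm at -0.24 (95% CI -0.36 to -0.11) and Ldha at -0.12 (95% CI -0.23 to -0.01) were lower, and Gpi1 at 0.43 (95% CI 0.29 to 0.56) was higher. Cells with Ifng, the interferon gamma gene, differed from those without by 0.02 to 0.08 in the sum over the 6 groups.

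Cycling cells, with 2 or more of Mki67, Top2a, Birc5, Cdk1, Ube2c and Rrm2, numbered only 34 to 64 per group and were deeper, at 11270 to 15959.5 median UMIs. Their sum of the 10 genes was 1212 CPM against 852 in naive lung and 1270.5 against 992 in 14-day lung. Pgk1 was higher in them, with log2 ratios of 1.06 (95% CI 0.69 to 1.40) in naive lung and 1.12 (95% CI 0.78 to 1.44) in 14-day lung, and Gpi1 had 0.93 (95% CI 0.59 to 1.26) and 0.56 (95% CI 0.23 to 0.86). Aldoa had -0.03 and -0.55 in the same groups. Among cells with 8000 to 14000 UMIs, 2 groups kept at least 20 cycling cells, and the differences were smaller there. The ratio of the sum in 6 h lung was 0.18 (95% CI 0.03 to 0.33) in place of 0.44, over 34 cycling cells. In naive blood it was 0.09 (95% CI -0.09 to 0.26) in place of 0.20, over 26. In 6 h lung Pgk1 had 0.14 (95% CI -0.42 to 0.65) in place of 0.49, and Gpi1 had -0.10 (95% CI -0.68 to 0.43) in place of 0.49. Leaving cycling cells out changed no count of called genes.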

How the data were processed

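The deposited values are raw UMI counts of genes and hashtags in all barcodes, which the authors made with Cell Ranger (7.0.1 in the labels and methods, 7.1.0 in the file headers) on GRCm38.p6 and without normalization. The 10 genes, the gene lists and the gates were chosen with earlier results of these data known, and the Gzmc count classes, the limit of 25 per 10000 and the depth ranges after values were seen, that limit from several that were looked at.

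Barcodes with 800 to 5000 genes and at most 6% mitochondrial counts were kept, 8385 (naive), 7584 (6 h) and 5785 (14 days). Tissue needed 90% of tag counts, and 342, 158 and 141 barcodes without it were left out. No doublet caller was run, so doublets within a tissue stayed in. The libraries shared 16, 11 and 7 cell barcodes by pairs. UMIs were summed per library and tissue and scaled to counts per 1000000. Sums have exact Poisson, ratios conditional binomial and shares Clopper-Pearson intervals, and shares at 3000 UMIs are hypergeometric expectations. A call is 1.5-fold, with all genes of at least 50 CPM in the higher group as background. Zero counts were replaced by 3 in that background. Free RNA limits come from barcodes with at most 100 counts. The text names the 10 genes always, listed enzymes of at least 20 CPM, up to 4 genes of each other list with the largest ratios, Hif1a and Myc, and Pfkfb3, Pgls, Bnip3l, Kdm3a, Bpgm, Mif and single markers after their values were seen. Promoters are RefSeq windows, found for all 10 genes. Lung over blood was also tested over the 3 libraries on the summed counts per gene symbol with edgeR 4.0.16 (quasi-likelihood test, library as block, TMM, filterByExpr, Benjamini-Hochberg adjustment at 0.05), with DESeq2 1.42.0 as an alternative, both added after seeing the data. Scripts ran in R 4.3.3 and in Python 3.11.15 with pandas 2.3.3, numpy 2.4.6 and scipy 1.17.1 and were tested on simulated data. Alternatives changed totals, tag share, depth, free RNA, mitochondrial limit, fold and level limits, and left out cycling cells, the deepest 5% of cells and, added after seeing the data, cells with markers of other types or of stress.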

Additional observations from a re-analysis of the deposited data

How the results depend on the processing

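Lung and blood were paired by library. Without the replicate block, 1 of the 10 genes, Slc2a1, was higher in lung over the 3 libraries in place of 2, and the count was 1 to 3 with 1 library left out. Pfkl was lost without the naive or the 6 h library, and Ldha was gained without the 14-day library (log2 ratio 0.08, edgeR adjusted p = 0.041). Counts of the 10 genes in this section are given without the share of all genes called in the same setting. They show only how the counts depend on the processing, and a gene gained is not a result about the 10 genes. RLE factors, no factors, no filter on low counts and DESeq2 left the counts at 2 higher and 0 lower. In the single libraries, under 9 alternatives 1 gene that was called turned direction, Hk2 for lung over blood at 6 h, at -0.039 with at most 3% mitochondrial counts. The count of genes called higher in lung than blood went from 0 to 1 in naive mice with free RNA subtracted, from 1 to 2 at 6 h with 99% of tag counts or free RNA subtracted, and from 1 to 0 there with at most 3% mitochondrial counts or without cells with Fos, Egr1, Atf3, Hspa1a or Hspa1b. At 14 days it went from 1 to 2 with 99% of tag counts, free RNA subtracted or totals without mitochondrial and ribosomal protein genes. The gene gained was Slc2a1 in each of these cases. For lung over naive it went from 1 to 0 at 6 h with 99% of tag counts, and from 1 to 3 at 14 days with at most 3% mitochondrial counts or the other totals, where Gpi1 and Aldoa were gained. With the other totals the median ratio was 0.37 in place of 0.20 for 14-day over naive lung and 0.026 in place of -0.05 for lung over blood at 14 days. Thinned cells, and leaving out cycling cells, the deepest cells or cells with markers of other types, moved no count or median beyond its limits. The fold limit mattered as well. At the lower of the 2 other limits tried the count higher in lung than blood was 2 in each library, and over naive at 14 days it was 3 in lung and 2 in blood. At the higher one, 2-fold, Hk2 was no longer called at 6 h, in either comparison. With 20 CPM in the higher group 4 shares of all genes called moved by over 1.5-fold, each for 6 h over naive and to at most 0.359%, and with 100 CPM 2 moved, to 0.0479% and 0.858%. Low counts limit Hk2, and the single library per condition limits every difference between times.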
